A study of Mus musculus with 14 samples.

Results

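Gapdh and Eno1 encode enzymes of glycolysis, and each was represented by 1 transcript in the count tables of this series, 2 of the 1399 transcripts listed. The members were found by mapping Ensembl transcript identifiers to symbols: Gapdh was counted as ENSMUST00000118875 (Gapdh-203, chromosome 6, 1420 nt with 999 nt of coding sequence) and Eno1 as ENSMUST00000080926 (Eno1-202, chromosome 4, 2027 nt with 1302 nt of coding sequence). GENCODE annotates 13 transcripts of Gapdh and 11 of Eno1, of which 1 each was listed.

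Polyadenylated RNA of wild-type mouse embryonic fibroblasts (MEFs), cultured connective tissue cells, was sequenced in 14 libraries forming 7 groups of 2; per the labels' protocols only short mRNA, cut from a gel, entered the libraries. The groups were untreated cells (NT), cells starved of cysteine (Cys), cells starved of all amino acids (AA), a second untreated group (NT2), cells given cysteamine, a drug that clears cystine from lysosomes (Cysteamine), cells transfected with a hairpin RNA against the lysosomal cystine exporter CTNS (CTNS-KD), and cells with that hairpin and a CTNS plasmid (CTNS-KD-rescue). All groups carry the genotype label WT, and the labels give no dose, duration or number of cultures. No group with a control hairpin or empty plasmid is among the samples used here, so transfection itself cannot be told apart from the knockdown. NT was taken as the control of the starvations and NT2 as that of the other groups from the naming; the column headers give a shared prefix to the 6 libraries of NT, Cys and AA and to no other.

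The libraries differed in size and makeup. Totals over the listed transcripts, which are not sequencing depths, were 25697 to 51224 in the 6 libraries of NT, Cys and AA, here called the starvation experiment. They were 64530 to 165747 in the 8 of NT2, Cysteamine, CTNS-KD and CTNS-KD-rescue, here called the cystinosin experiment. This split was read from the naming and the header prefix and is not stated. A class of 341 transcripts, here called tracking transcripts, was set apart because their counts, taken relative to the 3 most abundant transcripts, stood in NT at more than 2 times the median ratio to NT2. It held 9.38% to 9.59% of the counts in NT2, 16.3% to 17.4% in Cysteamine and 32.0% to 32.7% in CTNS-KD. It held 39.4% to 41.8% in CTNS-KD-rescue and 37.6% to 86.8% in the starvation experiment. Neither Gapdh nor Eno1 belongs to it. The counts of NT2 entered the choice of the class. Its low share in NT2, and the direction of changes against NT2 inside and outside it, are therefore partly set by that choice. Of 10 fibroblast markers 7 were listed; 1 of 4 markers each of epithelium, muscle and pancreas was listed (Cdh1, Ttn and Ctrb1), and none of endothelium or blood. Ctns itself was not among the listed transcripts, so its knockdown was not checked here. The labels do not say if paired libraries of a group are separate cultures; the p-values therefore reflect library-to-library spread that may be technical alone.

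Glycolysis breaks glucose down to pyruvate in the cytosol, yielding ATP and NADH. Gapdh oxidises glyceraldehyde-3-phosphate through a catalytic cysteine thiol, a residue known for its sensitivity to oxidation, and Eno1, the ubiquitous alpha-enolase, forms phosphoenolpyruvate further down the pathway. In many cell types hypoxia-inducible factor 1 raises transcription of glycolytic genes, and Gapdh is often used as a reference for normalizing RNA measurements.

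Both transcripts belong to families with near-identical copies, which limits what a count of either can mean. The coding stretch of Gapdh around the codon of the catalytic cysteine, shown because it is both the redox-sensitive site and one that copies share, was identical in 30 other genes of the GENCODE M21 annotation; the capitals mark the cysteine codon.
Gapdh coding stretch: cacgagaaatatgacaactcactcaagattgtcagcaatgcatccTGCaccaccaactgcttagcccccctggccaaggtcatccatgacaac
Of the 50-base words of Gapdh-203, 82.5% also occur in transcripts of other genes, 218 of them in all, led by the processed pseudogene Gm7336 (82.5%). Of those of Eno1-202, 72.2% occur in 9 other genes, led by the retrogene Eno1b (70.5%) and the processed pseudogene Gm4735 (52.8%). None of these 3 copies was listed, and how the authors assigned reads shared between copies or isoforms is not given in the sources used here, so both counts are uncertain to that extent. The Gapdh transcript holds 5 cysteine codons among 333 and the Eno1 transcript 6 among 434.

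The promoters are shown because both transcripts were lower together in CTNS-KD. RefSeq (GRCm38.p6) gives 1 Gapdh start, at the annotated start of the counted transcript, and 3 Eno1 starts, 244, 245 and 272 bases from that of Eno1-202; the nearest start on either side is shown for Eno1. Each window runs from 250 bases before the start to 50 after it, 5′ to 3′ on the strand of the gene. Capitals mark matches on either strand to ACGTG or GCGTG, the core letters bound by hypoxia-inducible factors; the windows were also searched for TGATGNAA, a form of the element bound by Atf4, and TATAAA.
Gapdh, chr6:125165724-125166023, minus strand: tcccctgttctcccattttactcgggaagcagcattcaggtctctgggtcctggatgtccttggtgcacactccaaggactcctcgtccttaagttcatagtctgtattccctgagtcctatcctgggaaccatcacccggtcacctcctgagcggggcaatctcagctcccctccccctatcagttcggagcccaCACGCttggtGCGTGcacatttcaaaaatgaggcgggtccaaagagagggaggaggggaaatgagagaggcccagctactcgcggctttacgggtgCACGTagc
Eno1 upstream start, chr4:150236458-150236757, plus strand: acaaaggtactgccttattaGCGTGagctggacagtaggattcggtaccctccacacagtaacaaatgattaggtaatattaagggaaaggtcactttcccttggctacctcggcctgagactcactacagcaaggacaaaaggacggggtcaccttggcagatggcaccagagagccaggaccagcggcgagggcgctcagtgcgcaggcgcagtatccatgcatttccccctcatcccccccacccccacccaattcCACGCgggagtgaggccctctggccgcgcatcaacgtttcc
Eno1 downstream start, chr4:150236947-150237246, plus strand: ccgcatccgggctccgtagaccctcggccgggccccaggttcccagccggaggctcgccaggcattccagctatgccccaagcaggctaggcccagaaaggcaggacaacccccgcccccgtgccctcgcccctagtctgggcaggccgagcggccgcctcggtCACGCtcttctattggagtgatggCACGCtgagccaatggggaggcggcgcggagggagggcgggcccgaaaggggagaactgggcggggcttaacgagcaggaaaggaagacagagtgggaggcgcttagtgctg
The Gapdh window held 1 ACGTG and 2 GCGTG matches, with no overlap between motifs, and each Eno1 window held 2 GCGTG matches and 0 ACGTG matches. Neither TGATGNAA nor TATAAA was found in these letters. Of 32851 promoter windows of this length, 19.6% held ACGTG, 32.4% GCGTG, 3.97% TGATGNAA and 13.6% TATAAA, so the GCGTG matches are letters that many promoters carry.

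Gapdh was counted 244 and 197 times in NT2, 196 and 260 times in Cysteamine, 69 and 45 times in CTNS-KD and 56 and 46 times in CTNS-KD-rescue (replicates 1 and 2). In the thinner starvation experiment it was counted 17 and 7 times in NT, 45 and 18 times in Cys, and 1 and 13 times in AA. The single count in AA replicate 1 has an exact 95% Poisson interval of 0.0253 to 5.57, which, like all counting intervals here, covers counting error alone. No listed transcript has a 0 in any library, so this count is at the lowest value listed. The interval does not allow for that limit.

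On a common scale, read counts normalised to library size (CPM) with trimmed-mean (TMM) scaling factors, the Gapdh level was highest in Cysteamine at 1101 ± 78.0 (SD, n = 2, as for all levels here). It was 959.8 ± 8.77 in NT2, 647 ± 54.4 in NT, 597 ± 207 in Cys, 550.3 ± 27.6 in CTNS-KD-rescue, 465 ± 76.9 in CTNS-KD and 319.8 ± 356 in AA. In this order the ranges of NT and Cys, of Cys and CTNS-KD-rescue, and of CTNS-KD and AA overlapped, while the other neighbours did not overlap. The untreated groups themselves stood apart, at 608.8 and 686 CPM in NT against 966 and 954 in NT2. The order across the 2 experiments depends on the scaling factors, which were 0.397 to 0.821 in NT and 1.52 to 1.55 in NT2. Without them Gapdh stood at 386 ± 161 CPM in NT and 1477 ± 6.44 in NT2.

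Eno1 was counted 108 and 87 times in NT2, 100 and 125 times in Cysteamine, 33 and 30 times in CTNS-KD and 27 and 36 times in CTNS-KD-rescue. It was counted 6 and 3 times in NT, 13 and 12 times in Cys, and 6 and 10 times in AA. The Eno1 level was again highest in Cysteamine, at 545 ± 15.7 CPM, and was 424 ± 4.56 in NT2, 424 ± 22.1 in AA, 351 ± 134 in CTNS-KD-rescue, 261 ± 18.0 in CTNS-KD, 257 ± 60.7 in Cys and 254 ± 55.9 in NT. Cysteamine alone did not overlap its neighbour in this order. The like levels of AA and NT2 rest on the scaling factors, 0.477 to 0.506 in AA. Without them Eno1 stood at 209 ± 19.5 CPM in AA and 653 ± 1.80 in NT2.

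**Figure D1:**
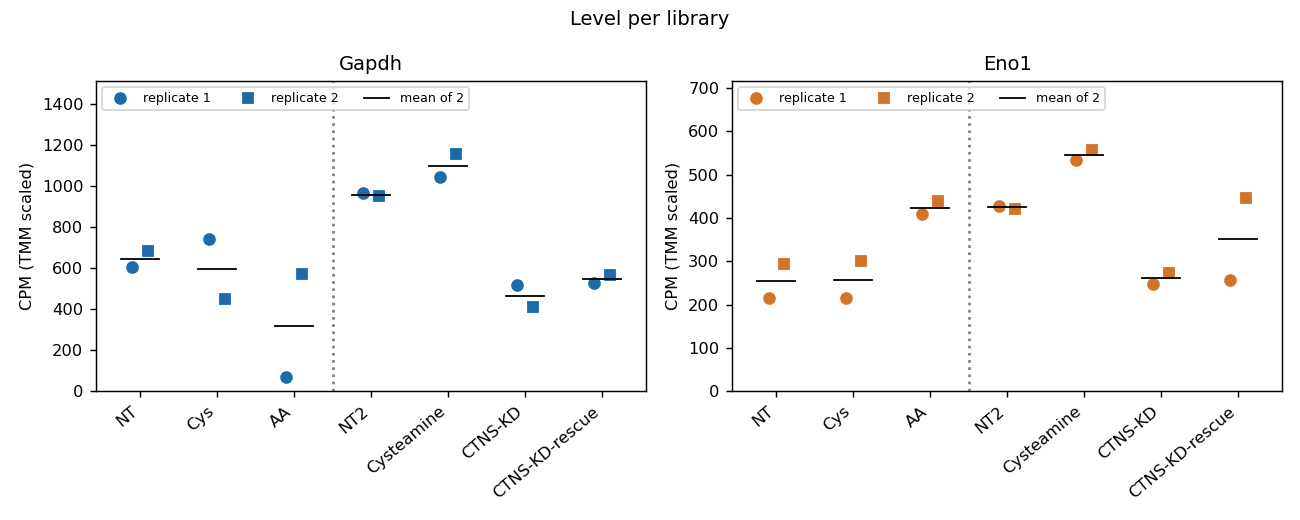
Levels of Gapdh (left) and Eno1 (right) in CPM with TMM scaling, for each of the 14 libraries by group, with a line at the mean of the 2 libraries; the dotted line separates the starvation experiment from the cystinosin experiment. Gapdh lies between 411 and 569.8 CPM in the 4 CTNS-KD and CTNS-KD-rescue libraries and between 954 and 1156 CPM in the 4 NT2 and Cysteamine libraries.

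Per kilobase of transcript, the Gapdh level exceeded the Eno1 level in 13 of 14 libraries. The mean level per kilobase was 676 ± 6.18 CPM for Gapdh and 209 ± 2.25 CPM for Eno1 in NT2, and 328 ± 54.2 and 129 ± 8.86 CPM in CTNS-KD. The exception was AA replicate 1, which rests on the single Gapdh count.

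Knockdown of CTNS against NT2 asks what changes when the exit of cystine from the lysosome is hindered, and here both glycolytic transcripts fell. Gapdh fell by 1.03 on the log2 scale (SE 0.24, 2.05-fold lower, 95% interval 1.43 to 2.93, adjusted p = 0.00544 by edgeR's quasi-likelihood test), with 519.7 and 411 CPM in the knockdown against 966 and 954 in NT2. Eno1 fell by 0.70 (SE 0.22, 1.63-fold lower, 95% interval 1.17 to 2.26, adjusted p = 0.0253), with 249 and 274 CPM against 428 and 421. For both the groups did not overlap. Of all transcripts 30.8% were called in this comparison and 13.2% called lower. The libraries did not overlap in 71.8%, with 31.6% lower. Among the 1058 transcripts outside the tracking class, to which both members belong, 185 were called lower and 79 higher. NT2 is the control here and also entered the choice of the class, so this split is partly set by that choice. In CPM without scaling factors, Gapdh stood at 633 ± 95.8 against 1477 ± 6.44 and Eno1 at 356 ± 29.5 against 653 ± 1.80.

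Leaving out 1 library in turn, Gapdh stayed lower but did not pass without NT2 replicate 1 (adjusted p = 0.0547) or without CTNS-KD replicate 2 (adjusted p = 0.0852), and Eno1 did not pass without any 1 of the 4 (adjusted p from 0.083 to 0.167, edgeR). Eno1 also missed the threshold by DESeq2 (adjusted p = 0.077) and when the scaling factors left out the tracking transcripts (adjusted p = 0.0612). With the fit limited to the 8 libraries of this experiment both were called, at -1.12 for Gapdh and -0.79 for Eno1, and against NT, the untreated group of the other experiment, neither was, at -0.43 and 0.14.

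Most of the transcripts that serve as references also lay below NT2, though 1 alone passed. Of 7 reference genes listed, 6 were below 0 in CTNS-KD against NT2 and 1 was called lower, with a median log2 fold change of -0.67. The median was 0.092 over all 1399 transcripts, 1.32 over the tracking transcripts and -0.12 over the 1058 others. The medians inside and outside the class are partly set by how it was chosen. The cyclophilin A gene Ppia was called (-0.74 ± 0.19, log2 fold change with SE, adjusted p = 0.00921), while the beta-actin gene Actb stood at -0.67 ± 0.32 (adjusted p = 0.117) and the tubulin gene Tubb5 at -0.40 ± 0.24 (adjusted p = 0.220). The RNA polymerase II gene Polr2a stood at 0.16 ± 0.18.

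Ratios of counts within a library do not depend on scaling. The ratio of Eno1 to Actb counts was 0.0710 and 0.0758 in the NT2 libraries and 0.0688 and 0.0750 in the CTNS-KD libraries, so the ranges overlapped. The ratio of Gapdh to Actb was 0.160 and 0.172 in NT2 against 0.113 and 0.144 in CTNS-KD, lower without overlap. The ratio of Gapdh to Pkm, the pyruvate kinase gene, was 0.471 and 0.512 in NT2 and 0.217 and 0.262 in CTNS-KD, again without overlap. That of Eno1 to Pkm was 0.208 and 0.226 in NT2 and 0.125 and 0.145 in CTNS-KD, also without overlap. The ratios of Gapdh to Eef1a1, the elongation factor gene, and to Aldoa, the aldolase gene, were also lower without overlap. They were 0.0924 and 0.116 against 0.127 and 0.134 in NT2, and 1.32 and 1.38 against 1.92 and 2.77. For Eno1 both overlapped. Its ratio to Eef1a1 was 0.0554 and 0.0616 against 0.0560 and 0.0592 in NT2, and to Aldoa 0.66 and 0.882 against 0.850 and 1.23. An exact permutation test of 2 libraries against 2 cannot go below p = 0.333, so these ratios were not tested.

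All 7 listed fibroblast markers also lay below 0 in CTNS-KD against NT2, and 5 were called lower. Their summed level over the 7 listed markers, in CPM without scaling factors, was 48572 to 52055 in NT2 and 13810 to 13990 in CTNS-KD, and the collagen gene Col1a2 was among those called (-2.84 ± 0.35). The epithelial marker Cdh1 ranged from 6.03 to 37.6 in NT2 on the same scale and from 75.3 to 122 in CTNS-KD, the muscle marker Ttn from 151 to 301 and from 565 to 619, and the pancreatic marker Ctrb1 from 18.1 to 22.6 and from 335 to 477; all 3 are tracking transcripts, whose share of the counts was 9.38% to 9.59% in NT2 and 32.0% to 32.7% in CTNS-KD. In bulk RNA fewer cells of a type and less RNA per cell cannot be told apart, and the part of these shifts in the fall of Gapdh and Eno1 was not tested.

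CTNS-KD-rescue against CTNS-KD asks whether adding CTNS back changes the knockdown state. Neither transcript passed: Gapdh stood at 0.23 ± 0.28 (95% interval -0.37 to 0.83, adjusted p = 0.789) and Eno1 at 0.39 ± 0.26 (95% interval -0.16 to 0.94, adjusted p = 0.552). The 2 rescue libraries differed for Eno1, at 256 and 446 CPM, the first within the CTNS-KD range and the second above the NT2 range. For Gapdh they measured 531 and 569.8 CPM, just above the CTNS-KD libraries and without overlap, as did 48% of all transcripts in either direction. Of all transcripts 0.643% were called. Without rescue replicate 2, Eno1 stood at -0.025 against CTNS-KD.

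Against NT2, whose libraries also serve as the control of CTNS-KD and Cysteamine, the Gapdh level was lower in both rescue libraries, without overlap. Gapdh fell by 0.81 (SE 0.25, 1.75-fold lower, 95% interval 1.21 to 2.52, adjusted p = 0.0217, edgeR), where 31.5% of all transcripts were called and 12.9% called lower, and 68.4% did not overlap, with 34.4% lower; it did not pass when the scaling factors left out the tracking transcripts (-0.61, adjusted p = 0.0818), nor without any 1 of the 4 libraries (adjusted p from 0.0953 to 0.134). Among the 1058 transcripts outside the tracking class 179 were called lower and 59 higher, a split partly set by how the class was chosen. Eno1 stood at -0.31 ± 0.23 (95% interval -0.79 to 0.17, adjusted p = 0.318), with overlapping libraries, and at 0.049 without rescue replicate 1. The fibroblast markers summed to 21268 to 22145 CPM in the rescue, without scaling factors; 3 of 7 were called lower and 1, the periostin gene Postn, higher (1.54 ± 0.42). Of the markers of other cell types Ttn (2.17 ± 0.29) and Ctrb1 (4.88 ± 0.58) were called higher and Cdh1 stood at 1.61 ± 0.88 (adjusted p = 0.182). The part of these shifts in the Gapdh difference was not tested. All 7 reference genes were below 0 and 4 were called lower, led by Ppia (-1.34 ± 0.22), with 3 called under the size factors of DESeq2 and 2 when the scaling factors left out the tracking transcripts. The ratio of Gapdh to Actb, 0.153 and 0.181, overlapped that of NT2, while the ratios of Gapdh to Pkm, 0.232 and 0.272, and to Aldoa, 1.10 and 1.24 against 1.92 and 2.77 in NT2, were lower without overlap. The ratio of Gapdh to Eef1a1, 0.133 and 0.136, overlapped the 0.127 and 0.134 of NT2. The ratios of Eno1 to Pkm, 0.112 and 0.213, to Actb, 0.0738 and 0.142, and to Aldoa, 0.529 and 0.973, overlapped those of NT2. That of Eno1 to Eef1a1, 0.0657 and 0.104, lay above the 0.0560 and 0.0592 of NT2.

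**Figure D2:**
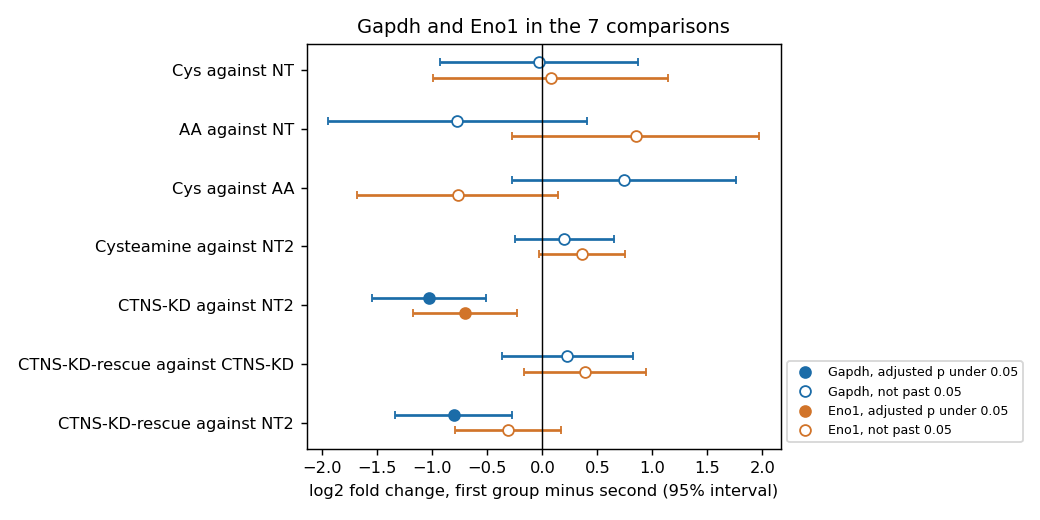
Log2 fold change of Gapdh (blue) and Eno1 (orange) in the 7 comparisons, first group minus second, with 95% intervals from edgeR; filled points have an adjusted p under 0.05. The filled points are Gapdh in CTNS-KD (-1.03) and CTNS-KD-rescue (-0.81) and Eno1 in CTNS-KD (-0.70), each against NT2.

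Cysteamine against NT2 asks what the removal of lysosomal cystine by the drug changes. Here the glycolytic transcripts lay above the control, and neither passed. Gapdh measured 1046 and 1156 CPM against 966 and 954 (log2 fold change 0.20 ± 0.21, 95% interval -0.25 to 0.65, adjusted p = 0.576), and Eno1 measured 534 and 556 CPM against 428 and 421 (0.36 ± 0.18, 95% interval -0.029 to 0.75, adjusted p = 0.208). For both the libraries did not overlap between groups, which held for 66% of all transcripts, 26.2% in the lower direction, and 10.5% were called, 5% lower. The fibroblast markers summed to 26533 to 27614 here without scaling factors, with 2 of 7 called lower; their part was not tested. The intervals leave room for a rise of 1.57-fold of Gapdh and 1.68-fold of Eno1, and for a fall of Gapdh of 1.19-fold. Of the 7 reference genes 5 also lay above 0, with 0 called and a median of 0.17. Under the size factors of DESeq2 all 7 did. The ratios of Gapdh to Actb, Eef1a1 and Aldoa overlapped those of NT2. That to Pkm, 0.361 and 0.451, lay below the 0.471 and 0.512 of NT2. The ratios of Eno1 to Actb, Aldoa and Pkm overlapped, while that to Eef1a1, 0.0651 and 0.0659, lay above the 0.0560 and 0.0592 of NT2.

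Starvation was measured on few counts and with a wide spread: between the libraries of a group, chi-square per degree of freedom over transcripts was 7.42 in NT, 5.08 in Cys and 4.15 in AA, against 1.56 to 1.99 in the other groups, where counting error alone gives about 1. Cysteine starvation against NT gave log2 fold changes of -0.031 ± 0.42 for Gapdh (95% interval -0.93 to 0.87, adjusted p = 0.990) and 0.077 ± 0.50 for Eno1 (95% interval -0.99 to 1.14, adjusted p = 0.976), with overlapping libraries for both, at 743 and 451 against 609 and 686 CPM of Gapdh and at 215 and 300.4 against 215 and 294 CPM of Eno1. Eno1 turned to -0.23 without NT replicate 1 and to -0.14 without Cys replicate 2, and Gapdh to 0.026 without NT replicate 2 and to 0.23 without Cys replicate 2. Of all transcripts 45.6% did not overlap, 21.1% lower, and 0% were called by edgeR, where 230 had an unadjusted p under 0.05 and DESeq2 called 67. A change of Gapdh from 1.91-fold lower to 1.82-fold higher lay within the interval, which uses a spread estimated over all 14 libraries. With the fit limited to the starvation experiment the SE was larger, at -0.079 ± 0.60 for Gapdh and 0.069 ± 0.66 for Eno1. The intervals given here for the starvations may therefore be too narrow.

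Full amino acid starvation against NT set the 2 transcripts in opposite directions without either passing. Gapdh stood at -0.77 ± 0.55 (95% interval -1.95 to 0.40, adjusted p = 0.702), at 68.1 and 572 CPM against 609 and 686, and Eno1 at 0.85 ± 0.53 (95% interval -0.28 to 1.97, adjusted p = 0.681), at 408 and 439.6 CPM against 215 and 294. The groups did not overlap for either, as for 30.9% of all transcripts, 14.6% lower, and edgeR called 0% of them, with 109 at an unadjusted p under 0.05 and 0 called by DESeq2. The Gapdh value rested on AA replicate 1 and its single count: without that library the log2 fold change was -0.14, and without AA replicate 2 it was -3.19. In the fit limited to the starvation experiment Gapdh stood at -0.94 ± 0.69 and Eno1 at 0.72 ± 0.69 in AA against NT. Cysteine against full amino acid starvation gave 0.74 ± 0.48 for Gapdh (adjusted p = 0.342) and -0.77 ± 0.43 for Eno1 (adjusted p = 0.278), where 15% of all transcripts were called, 12.4% lower; without AA replicate 2 Gapdh was called at 3.16 (adjusted p = 0.0284) and without AA replicate 1 it stood at 0.11. The Cys libraries lay below the AA libraries for Eno1 without overlap, as did 28.1% of all transcripts, with 53.8% apart in either direction. In the fit limited to this experiment Cys against AA gave 0.86 ± 0.63 for Gapdh and -0.65 ± 0.58 for Eno1.

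The balance of the 2 transcripts within a library is free of scaling. Eno1 made up 30.7% and 30.6% of the summed Gapdh and Eno1 counts in NT2 (exact Clopper-Pearson 95% intervals in the plot), 33.8% and 32.5% in Cysteamine, 32.4% and 40% in CTNS-KD and 32.5% and 43.9% in CTNS-KD-rescue. It made up 26.1% and 30.0% in NT, 22.4% and 40% in Cys, and 85.7% and 43.5% in AA. The interval of AA replicate 1, on 7 counts, ran from 42.1% to 99.6%. Cysteamine, CTNS-KD and CTNS-KD-rescue lay above NT2 in both libraries, while the interval of every library of those 3 groups overlapped those of NT2. AA lay above NT in both libraries, and the intervals of both AA libraries overlapped those of both NT libraries. Differences in the share were not tested.

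**Figure D3:**
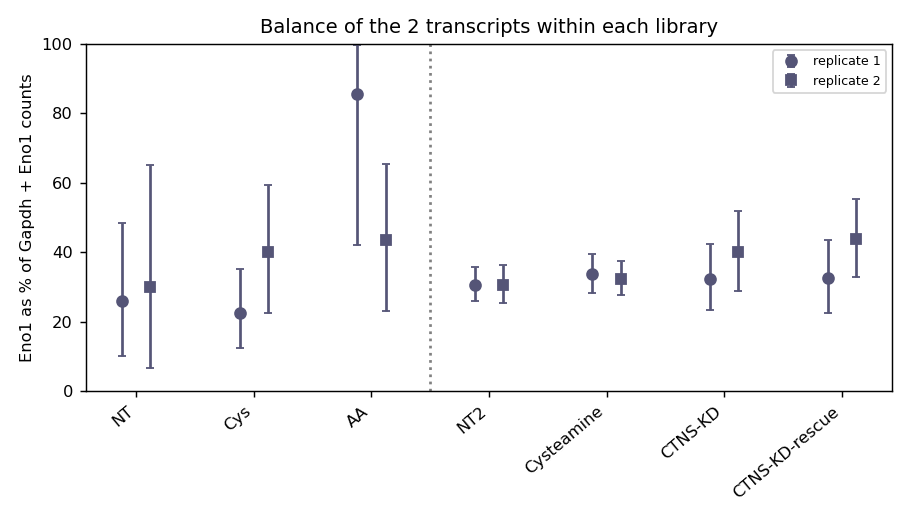
Eno1 as a percentage of the summed Gapdh and Eno1 counts in each of the 14 libraries, with exact 95% binomial intervals that cover counting error alone. Shares lie between 30.6% and 43.9% in the cystinosin experiment and between 22.4% and 85.7% in the thinner starvation experiment.

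Of 24 glycolysis genes on the list used here 5 were listed in the tables, so the rest of the pathway was seen through Aldoa, the aldolase gene, Pgam1, the phosphoglycerate mutase gene that acts between Gapdh and Eno1, and Pkm. In CTNS-KD against NT2 all 5 were below 0, with Pkm above 0 under the other scalings. Their median was -0.30, beside 0.092 over all transcripts. The 2 called lower were Gapdh and Eno1 themselves, where 13.2% of all transcripts were called lower. The other 3 stood at -0.30 ± 0.25 (Aldoa, adjusted p = 0.386), -0.26 ± 0.20 (Pgam1, adjusted p = 0.341) and -0.016 ± 0.27 (Pkm, adjusted p = 0.973). Whether Gapdh and Eno1 differed from these 3 was not tested.

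In Cysteamine against NT2 all 5 were above 0 under each of the 3 scalings and 0 were called by edgeR. The median was 0.36, beside 0.13 over all transcripts and 0.024 over those outside the tracking class. At an unadjusted p under 0.05 by edgeR there was 1, Pgam1 (0.52 ± 0.18, adjusted p = 0.0748). In CTNS-KD-rescue against CTNS-KD all 5 were also above 0 and 0 were called. In CTNS-KD-rescue against NT2 Aldoa (0.14 ± 0.25), Pgam1 (0.071 ± 0.20) and Pkm (0.16 ± 0.27) lay above 0 and Gapdh and Eno1 below. In the starvations 0 of 5 were called; Pgam1 stood at 0.42 ± 0.38 and Aldoa at 0.48 ± 0.48 in Cys against NT.

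Of 16 genes for lactate, hexose transport and the control of glycolysis 1 was listed, Pfkfb3, which makes the activator of phosphofructokinase. It was counted 21 and 12 times in NT2, 11 and 9 times in CTNS-KD and 15 and 12 times in CTNS-KD-rescue, and stood at 0.20 ± 0.41 in CTNS-KD and 1.01 ± 0.39 in the rescue against NT2 (adjusted p = 0.0573 for the latter, edgeR; called under both other scalings). None of 7 pentose phosphate genes was listed. Of 24 genes of pyruvate dehydrogenase and the citrate cycle 5 were listed, all below 0 in CTNS-KD against NT2 with 0 called (median -0.51), among them the 2-oxoglutarate dehydrogenase gene Ogdh (-0.58 ± 0.26) and the malate dehydrogenase gene Mdh2 (-0.41 ± 0.23).

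Of 17 targets of hypoxia-inducible factor 1 outside glycolysis 3 were listed, of which 1 was called higher and 1 called lower in CTNS-KD. Of all transcripts 30.8% were called there, with 13.2% called lower. In CTNS-KD against NT2 the prolyl hydroxylase gene of collagen P4ha1, a tracking transcript, was called higher (1.31 ± 0.33), the angiogenic factor gene Vegfa stood at 0.58 ± 0.27 (adjusted p = 0.111) and the lysyl oxidase gene Lox was called lower (-2.83 ± 0.21). In CTNS-KD-rescue against NT2 Vegfa (1.30 ± 0.26) and P4ha1 (1.82 ± 0.33) were called higher and Lox was called lower (-2.21 ± 0.21). There 31.5% of all transcripts were called, with 12.9% called lower.

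**Figure D4:**
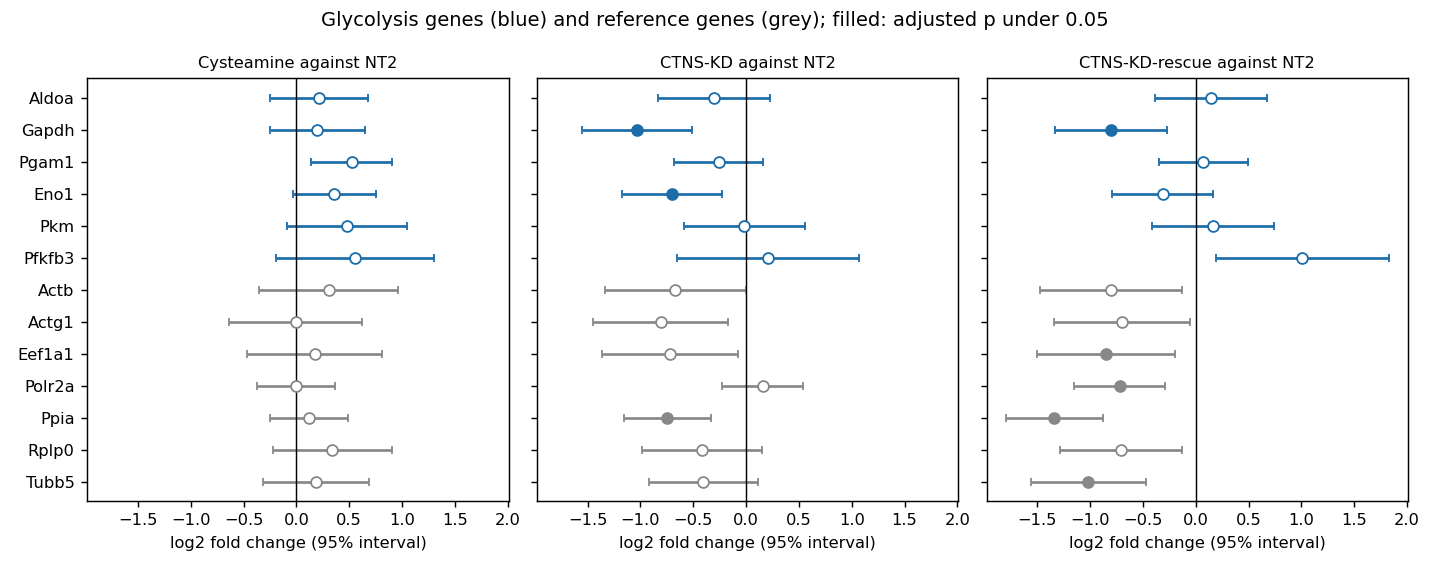
Log2 fold changes with 95% intervals against NT2 for the 5 listed glycolysis genes and Pfkfb3 (blue) and 7 reference genes (grey) in Cysteamine, CTNS-KD and CTNS-KD-rescue; filled points have an adjusted p under 0.05 by edgeR. In CTNS-KD the filled points are Gapdh, Eno1 and Ppia, and in CTNS-KD-rescue Gapdh lies at -0.81 while Aldoa, Pgam1 and Pkm lie between 0.071 and 0.16.

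Likeness of profiles was measured as Pearson's r of log2 CPM over the 14 libraries after removal of the mean of each experiment, among 896 other transcripts with a mean count of at least 20; libraries of a group share their treatment and all share the scaling, so the values describe these libraries. Most like Gapdh were Unc5b, a netrin receptor gene (r = 0.904), Fasn, the fatty acid synthase gene (r = 0.899), and Rad21, a cohesin gene (r = 0.894). Most like Eno1 were Larp4, an RNA-binding protein gene (r = 0.819), Rpl19, a ribosomal protein gene (r = 0.769), and Plxnb2, a semaphorin receptor gene (r = 0.759). Gapdh and Eno1 were little alike over the 14 libraries (r = 0.027) and more alike over the 8 of the cystinosin experiment (r = 0.853). Over those 8 libraries r with Gapdh was 0.946 for Unc5b, 0.709 for Fasn and 0.538 for Rad21. With Eno1 it was 0.966 for Larp4, 0.789 for Rpl19 and 0.643 for Plxnb2. The 14 libraries include AA replicate 1 with its single Gapdh count, and the weight of that library in these values was not tested.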

How the data were processed

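The authors deposited whole-number counts per Ensembl transcript for 14 libraries; the tables carry CPM in their names, but totals differ and the values are whole. No listed transcript has a 0 in any library, so loss of a transcript cannot be seen. Tools named in the submitters' processing notes are STAR 2.7.10a, Bowtie 1.2.3, cutadapt 2.8 and bcl2fastq 2.20.0.422, with build GRCm39; the sources used here name no counting tool, annotation or strand setting. Names came from GENCODE M21, which matched 1385 of 1399 transcripts, and promoters from RefSeq on GRCm38.p6; the counts were placed by no coordinate.

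edgeR 4.0.16 (quasi-likelihood test, TMM scaling, under R 4.3.3) was fitted to the 14 libraries together, 7 group means leaving 7 residual degrees of freedom, without a filter; p-values are two-sided, adjusted over 1399 transcripts by Benjamini-Hochberg with a threshold of 0.05. Levels are CPM with TMM; log2 CPM used a prior count of 2; SE is the log2 fold change over the root of F. Intervals are 95%. Alternatives were DESeq2 1.42.0, other scalings, a filter, single experiments, a replicate block, the other control and single libraries left out. The members, lists and the class of tracking transcripts were chosen with earlier results of these data known. Named were both members, all listed genes of the glycolysis and hexose lists, up to 4 of each other list by smallest p, and the 3 most alike transcripts per member; the 3 single markers of other cell types were named with their lists.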

Additional observations from a re-analysis of the deposited data

How the results depend on the processing

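Over the 14 values, Gapdh and Eno1 in 7 comparisons, 121 values under other settings had the same direction and side of the threshold. Another 15 kept their direction but no longer passed, 3 newly passed and 11 turned. All 15 belong to the values that passed in the main fit, Gapdh and Eno1 in CTNS-KD and Gapdh in CTNS-KD-rescue, each against NT2. Eno1 in CTNS-KD with NT as the control, among the 11, also lost its call. Most of the 121 are of values that did not pass in the main fit either. The direction of Eno1 in Cys against NT turned with scaling factors from transcripts outside the tracking class (-0.15), with a mean count of at least 20 (-0.081) and with NT2 as the control (-0.76). With NT as the control in place of NT2, Eno1 turned to 0.14 in CTNS-KD and 0.53 in CTNS-KD-rescue, Gapdh no longer passed at -0.43 and -0.20, and Eno1 passed in Cysteamine at 1.199; with NT2 as the control Gapdh passed in AA at -1.37. In CTNS-KD Eno1 did not pass by DESeq2 (-0.65) or with factors from outside the class (-0.58), and in CTNS-KD-rescue against NT2 Gapdh did not pass with the latter (-0.61). The causes were not tested.

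With 1 library left out, Gapdh ranged from -0.48 to 0.23 in Cys against NT, -3.19 to -0.14 in AA against NT, 0.11 to 3.16 in Cys against AA, -1.22 to -0.88 in CTNS-KD and -0.85 to -0.77 in CTNS-KD-rescue against NT2, and Eno1 from -0.23 to 0.34 in Cys against NT, -0.77 to -0.63 in CTNS-KD, -0.73 to 0.049 in CTNS-KD-rescue against NT2 and -0.025 to 0.78 against CTNS-KD. Fewer libraries leave fewer degrees of freedom.

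Counts of transcripts called moved by over 1.5 times as follows. In Cys against NT 0 became 2 under either other scaling, 67 by DESeq2, 80 with the replicate block, 248 with NT2 and up to 112 with 1 library left out. In AA against NT 0 became 459 with NT2, up to 20 with 1 library left out and 12 with the numbers of AA crossed, an alternative chosen after seeing the data. In Cys against AA 210 became 117 with the filter and 87 in the single experiment. It also moved without Cys replicate 1 or without AA replicate 1, and not without replicate 2 of either group. In Cysteamine 147 became 375 in the single experiment, 269 with the replicate block, 356 with NT and 15 to 32 with 1 library left out. In CTNS-KD 431 became 203 with NT and 191 to 237 with 1 library left out, in CTNS-KD-rescue 441 became 155 and 257 to 287, and against CTNS-KD 9 became 19 by DESeq2, 58 in the single experiment and 1 to 4. The factors from outside the class moved the median of all transcripts from 0.092 to 0.22 in CTNS-KD, from -0.0055 to 0.19 in CTNS-KD-rescue and from 0.011 to -0.22 in Cys against NT, and the share of calls that were higher from 57.1% to 67.7%, from 59.2% to 74.3% and, in Cys against AA, from 17.1% to 4.23%.

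Libraries with the same replicate number share only that number; their deviations correlated from -0.21 to 0.29, and the replicate block changed no call of Gapdh or Eno1, with CTNS-KD against NT2 at -1.03 for Gapdh. In the starvation experiment NT holds 24 counts of Gapdh and 9 of Eno1, and its replicates also differ beyond counting error; how much each limits the values was not tested.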
